A study of Rattus norvegicus with 13 samples.

Results

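Type I interferons are secreted signals that cells release on sensing viral or misplaced nucleic acid. They and the type II interferon, interferon gamma, switch on a shared set of antiviral genes. The interferon response genes described here are 9 rat genes of that set: the transcription factors Irf7, Irf1, Irf9 and Stat2, and the effectors Mx1, Mx2, Isg15, Ifitm1 and Bst2. Their probes were chosen by name, as those whose gene name in the scanner files equals a member. Of the 30367 probes and 26257 gene names on the array, 10 probes met this rule (2 for Irf1 and 1 for each other gene). The 9 genes, and the wider lists used below, were chosen with earlier results of these data known. Their counts set against all genes are therefore descriptions and no independent test. The samples were pieces of frontal cortex from male rats of the Sprague–Dawley strain, taken 1 month after trauma or sham surgery, with an array for each. Rotational trauma, a rapid angular acceleration of the head, was measured in 3 samples and its sham in 3. Percussion trauma (lateral fluid percussion, a pressure pulse applied to the dura) was measured in 3 samples and its sham in 4. Per the series' design text, sham animals had anaesthesia and surgery without the trauma, so that both are shared by trauma and sham, and whether the surgery was alike in the 2 models is not stated. The labels give no age, and nothing in them says whether samples of a group came from separate experiments, so p-values measure the spread between these samples.

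In textbook accounts, type I interferons bind the receptor Ifnar1/Ifnar2 and activate the kinases Jak1 and Tyk2. These lead to a complex holding Stat2 and Irf9 that binds the interferon-stimulated response element (ISRE) in promoters, while interferon gamma acts through the gamma-activated site (GAS). Irf7 then amplifies type I interferon production, and Irf1 is a classic GAS-driven gene. In brain, microglia, border macrophages, endothelium and meningeal cells are known to respond readily, and resting cortex keeps the pathway low.

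Values are log2 processed signals minus the array's own 75th percentile, called scaled log2 signal below; 0 therefore is the upper quartile of that array, and levels of different probes are not compared. Differences are log2 differences with the standard error (SE) of a limma fit to all 13 arrays, and a gene passes when its Benjamini-Hochberg adjusted p over all 17245 genes tested is under 0.05. All 9 members passed the filter on dim probes, and their probes in the fit were well above background on all 13 arrays. Mx2 and Stat2 had signals above 0 on all 13 arrays, sham included, so that not every member's signal was low in sham cortex. Between 67.0% and 74.1% of spots were well above background: 67.0% to 72.5% in rotational trauma, 73.1% to 74.1% in rotational sham, 72.7% to 73.8% in percussion trauma and 67.6% to 69.4% in percussion sham. Each model lay on a slide of its own, and within a slide trauma and sham lay in different columns, so slide column and group within a model cannot be told apart.

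In rotational trauma all 9 members had a positive difference from their own sham, with a median log2 difference of 0.31, and in percussion trauma 6 of 9 had one, with a median of 0.05. The medians over all genes tested were −0.03 and 0.01, and 39.8% and 52.7% of all genes had a positive difference. No member passed in either model (0 of 9 each). Over all genes, 0.0116% passed for rotational trauma (0.0058% as higher) and 0% for percussion trauma. At an unadjusted p under 0.05, 5 members were higher in rotational trauma against 2.85% of all genes, and 2 members in percussion trauma against 7.52% of all genes. Ifitm1 had the highest difference of the 9 in both models, at about 2 times its sham level. The members did not form a uniform block: the trauma arrays of Ifitm1 and Stat2 lay above all sham arrays in both models, those of Irf7 and Irf9 in rotational trauma, those of Irf1 in percussion trauma, and those of Bst2, Mx1, Mx2 and Isg15 in neither.

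**Figure D1:**
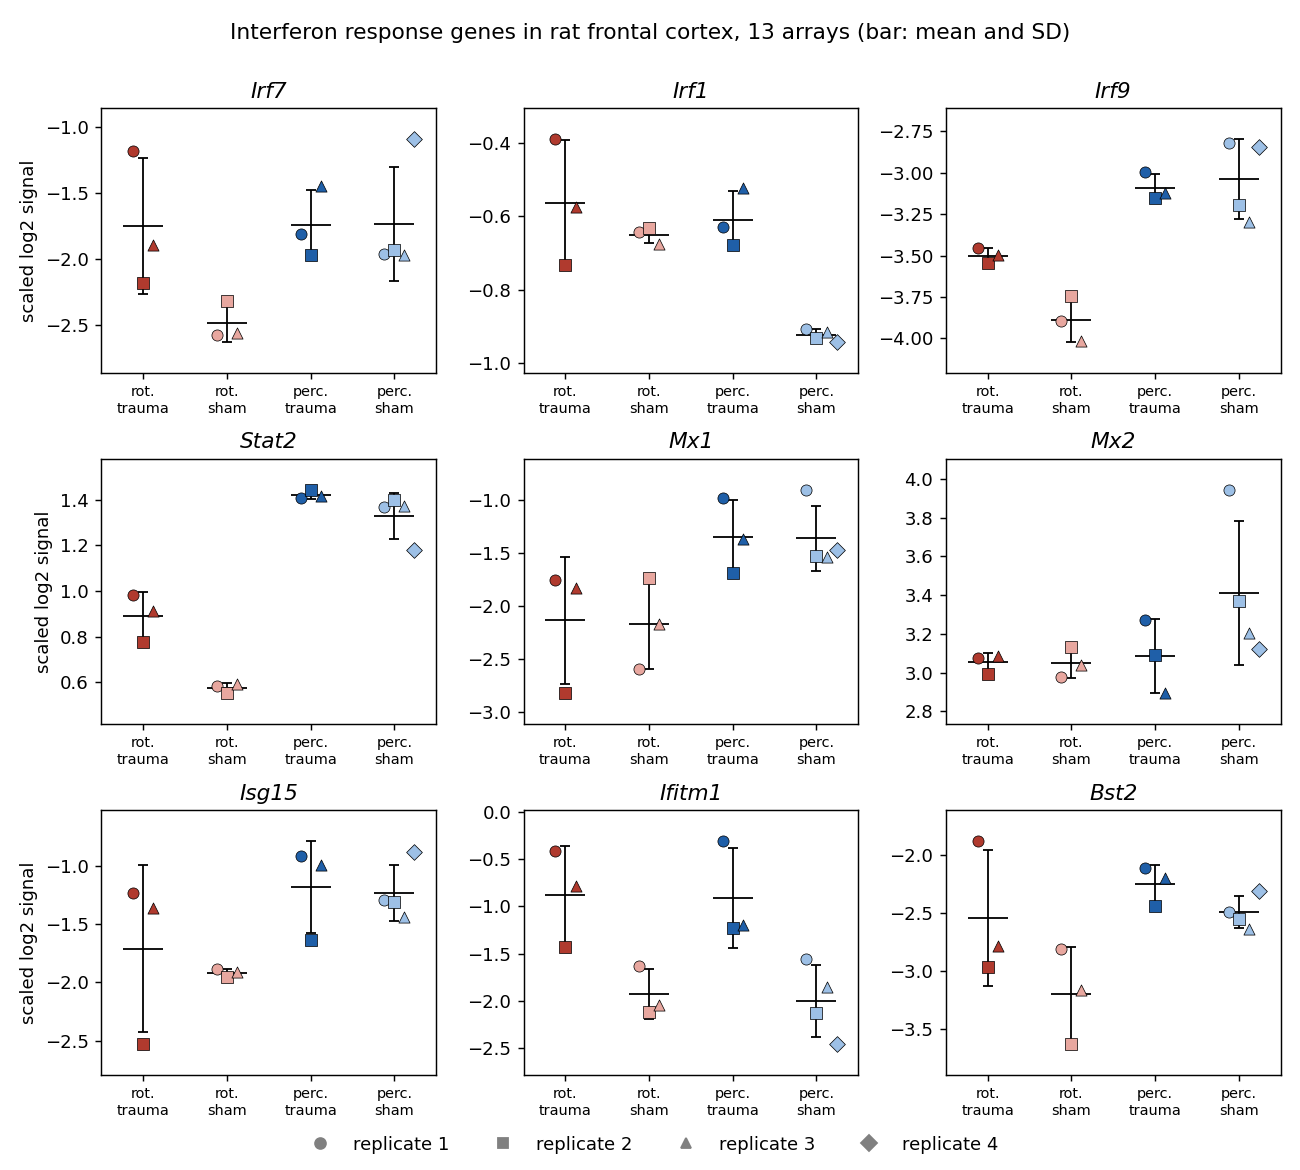
Scaled log2 signal (y axis) of the 9 interferon response genes on each of 13 arrays, by group on the x axis; symbols give the replicate number, the long bar the mean and the whiskers the SD, and each panel has its own scale. Ifitm1 lies higher on all 3 trauma arrays than on any sham array of its model in both models, and Irf9 and Stat2 lie higher in all percussion samples than in all rotational ones.

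Among the transcription factors, Irf7, which drives the amplification of type I interferon, had scaled log2 signals of −1.18, −2.18 and −1.89 on rotational trauma arrays 1, 2 and 3, against −2.57, −2.31 and −2.56 on rotational sham arrays. All 3 trauma arrays lay above all 3 sham arrays, although trauma array 2 exceeded the highest sham array by little and trauma array 1 stood far above the rest. The log2 difference was 0.73 (SE 0.28, adjusted p = 0.614), and it was 0.45 without rotational trauma array 1. In the percussion model Irf7 had −1.81, −1.96 and −1.44 in trauma, against −1.96, −1.93, −1.96 and −1.09 in sham. These groups overlapped fully, since percussion sham array 4 was the highest of the 7. The difference was −0.00 (SE 0.26), and 0.21 without percussion sham array 4. The Irf7 probe lies on the minus strand at chr1:201456889-201456948 of the rat assembly rn4, as the array files give it, and is shown with the probes of Irf9, Isg15 and the second Irf1 probe because the group orders described here rest on these single stretches of transcript.
Irf7 probe: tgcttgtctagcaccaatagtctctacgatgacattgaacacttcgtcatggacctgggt
Irf9 probe: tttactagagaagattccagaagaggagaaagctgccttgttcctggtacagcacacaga
Isg15 probe: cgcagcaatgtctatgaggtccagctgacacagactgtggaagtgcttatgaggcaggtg
Irf1 second probe: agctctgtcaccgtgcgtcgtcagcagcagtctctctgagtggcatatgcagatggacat
The Irf9 probe lies on the plus strand at chr15:33744491-33744550 and the Isg15 probe on the minus strand at chr5:173034674-173034733. The second Irf1 probe, on the plus strand, is given at chr10:39224461-39224695, a span of 235 bases for its 60 bases.

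Irf9, the DNA-binding subunit of the complex it forms with Stat2, had scaled log2 signals of −3.45, −3.55 and −3.50 in rotational trauma, against −3.90, −3.75 and −4.02 in rotational sham. The trauma arrays were tightly grouped and all lay above the sham arrays. The log2 difference was 0.39 (SE 0.13, adjusted p = 0.589). In the percussion model it had −2.995, −3.15 and −3.12 in trauma, against −2.82, −3.20, −3.29 and −2.84 in sham. Here the trauma arrays fell inside the sham range, and the difference was −0.05 (SE 0.12).

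Stat2, a subunit of the same complex, had 0.98, 0.78 and 0.91 in rotational trauma, against 0.58, 0.55 and 0.59 in rotational sham. The sham arrays differed by less than 0.05 among themselves, and every trauma array was above them. The log2 difference of 0.31 (SE 0.07) had the smallest p of the members in this model (unadjusted p = 0.00143, adjusted p = 0.399). Stat2 had 1.41, 1.44 and 1.42 in percussion trauma, against 1.37, 1.40, 1.37 and 1.18 in percussion sham. The groups did not overlap there either, but the gap to the nearest sham array was narrow, and the difference was 0.09 (SE 0.07, adjusted p = 0.638). It was 0.04 without percussion sham array 4, the lowest of the 4.

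Irf1, an interferon-gamma and type I interferon responsive factor, showed the other order. It had −0.63, −0.68 and −0.52 in percussion trauma, against −0.91, −0.93, −0.91 and −0.94 in percussion sham. The 4 sham arrays were nearly equal and all trauma arrays lay above them, with a log2 difference of 0.31 (SE 0.08, unadjusted p = 0.00177, adjusted p = 0.229). In rotational trauma it had −0.39, −0.73 and −0.57, against −0.64, −0.63 and −0.67 in rotational sham. Trauma array 2 lay below every sham array and the other trauma arrays above, and the difference was 0.09 (SE 0.08). The second, dimmer Irf1 probe was below background on percussion sham arrays 1 and 3 and gave differences of 0.38 (SE 0.46) in percussion trauma and 0.19 (SE 0.49) in rotational trauma. Its percussion trauma signals of −5.05, −4.81 and −5.83 overlapped the sham signals of −5.73, −5.26, −6.08 and −5.36, so that it did not repeat the separation seen with the first probe.

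Beside these counts, 4 members (Irf7, Irf9, Stat2 and Ifitm1) had rotational trauma arrays all above the sham arrays, against 4.86% of all genes. In percussion trauma 3 members (Irf1, Stat2 and Ifitm1) did, against 5.9% of all genes. No member had all trauma arrays below all sham arrays in either model, where 10.6% of all genes did in rotational and 3.83% in percussion trauma.

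Among the effectors, Ifitm1, a membrane protein that restricts virus entry, had scaled log2 signals of −0.42, −1.43 and −0.79 in rotational trauma, against −1.63, −2.12 and −2.04 in rotational sham. It had −0.31, −1.23 and −1.20 in percussion trauma, against −1.56, −2.13, −1.85 and −2.46 in percussion sham. In both models every trauma array was above every sham array, and the spread among trauma arrays (SD 0.51 and 0.52, n = 3 each) was wider than that among sham arrays (SD 0.27, n = 3, and 0.38, n = 4). The log2 differences were 1.05 in rotational trauma (SE 0.32, 2.07-fold, adjusted p = 0.543) and 1.09 in percussion trauma (SE 0.30, adjusted p = 0.253). Averaged over both models the difference was 1.07 (SE 0.22, 2.1-fold, unadjusted p = 0.000434, adjusted p = 0.186), which did not pass. Leaving out 1 array at a time kept it between 0.82 and 1.33 in the rotational model and between 0.79 and 1.25 in the percussion model. The Ifitm1 probe lies at chr1:201155335-201155394 on rn4. It shares no run longer than 7 bases with the probe of Ifitm2 and 6 bases with that of Ifitm3, the other members of its family tested here.

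Bst2, also called tetherin, holds budding virus particles at the cell surface. It had −1.88, −2.97 and −2.78 in rotational trauma, against −2.81, −3.63 and −3.17 in rotational sham. Trauma array 2 lay inside the sham range and trauma array 1 stood far above all others. The log2 difference was 0.66 (SE 0.26, adjusted p = 0.650), and 0.33 without rotational trauma array 1. In percussion trauma it had −2.12, −2.45 and −2.20, against −2.49, −2.55, −2.64 and −2.31 in percussion sham. The groups overlapped through trauma array 2 and sham array 4, and the difference was 0.24 (SE 0.25, adjusted p = 0.747).

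Isg15, a ubiquitin-like protein that is attached to other proteins during the interferon response, had −1.23, −2.53 and −1.36 in rotational trauma, against −1.89, −1.96 and −1.91 in rotational sham. Here 2 trauma arrays lay above the tightly grouped sham arrays and trauma array 2 lay below all of them. The difference of 0.21 (SE 0.30) became −0.03 without rotational trauma array 1 and 0.62 without rotational trauma array 2. In percussion trauma it had −0.91, −1.64 and −0.99, against −1.29, −1.31, −1.44 and −0.88 in percussion sham, a difference of 0.05 (SE 0.28). Trauma array 2 was the lowest and sham array 4 the highest of these 7.

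The Mx genes encode antiviral GTPases. Mx1 had −1.76, −2.83 and −1.83 in rotational trauma, against −2.60, −1.74 and −2.18 in rotational sham, and −0.99, −1.69 and −1.37 in percussion trauma, against −0.91, −1.54, −1.54 and −1.47 in percussion sham. The groups overlapped in both models, with differences of 0.03 (SE 0.31) and 0.02 (SE 0.29). Mx2 had 3.08, 2.99 and 3.09 in rotational trauma, against 2.98, 3.13 and 3.04 in rotational sham, a difference of 0.00 (SE 0.18). The 6 arrays lay within a narrow band. Mx2 had 3.27, 3.09 and 2.89 in percussion trauma, against 3.94, 3.37, 3.20 and 3.12 in percussion sham. The groups overlapped, and the difference was −0.32 (SE 0.17, unadjusted p = 0.0804, adjusted p = 0.493), or −0.14 without percussion sham array 1. The longest run of bases shared by the Mx1 and Mx2 probes was 4.

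**Figure D2:**
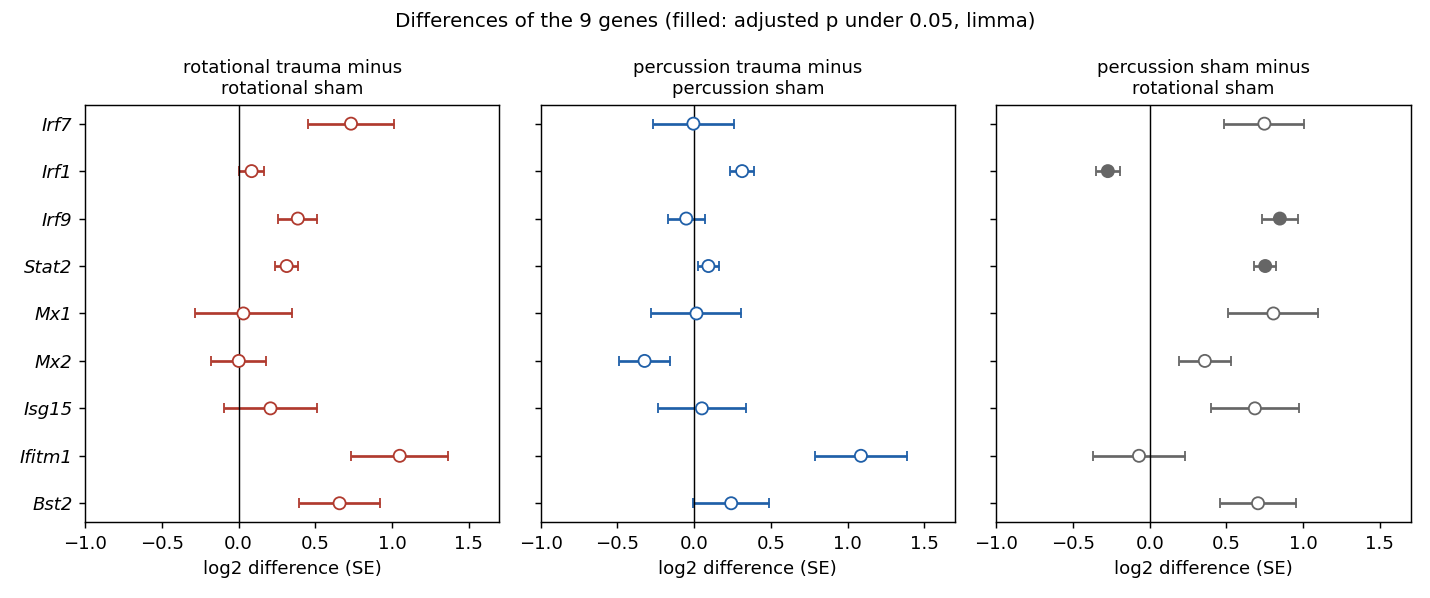
Log2 differences of the 9 genes (x axis, points with SE bars) in 3 comparisons, from left to right rotational trauma against sham, percussion trauma against sham, and percussion sham against rotational sham. Filled points passed at an adjusted p under 0.05: none for trauma, and Irf1, Irf9 and Stat2 between the shams.

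The values by array show how far individual arrays carried the differences. Set against the mean of its own sham arrays, the median of the 9 members was 0.43 on rotational trauma array 1, 0.20 on array 2 and 0.39 on array 3. All 9 members were above the sham mean on arrays 1 and 3, and 5 of 9 on array 2. On rotational trauma array 1, Irf7 (1.31), Bst2 (1.32), Ifitm1 (1.51) and Isg15 (0.69) exceeded the sham mean by more than 0.5, as did Irf7 (0.59), Isg15 (0.55) and Ifitm1 (1.14) on array 3. Array 2 had no member above 0.5 and had Mx1 at −0.66 and Isg15 at −0.61. Against these counts of 4, 0 and 3 members on arrays 1, 2 and 3, the shares of all genes above 0.5 were 5.41%, 2.62% and 4.36%. Without rotational trauma array 1, the count of members with a positive difference was 5 of 9 and the median 0.27.

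On percussion trauma arrays 1, 2 and 3 the members' median was 0.29, −0.11 and 0.24, and 7, 4 and 6 of 9 members were above the sham mean. Only Ifitm1 was above 0.5 on these arrays, at 1.69, 0.77 and 0.80, where 7.53%, 6.61% and 4.63% of all genes were. Sham arrays also held such values: Irf7 was 0.65 above the sham mean on percussion sham array 4, and Mx2 0.53 on percussion sham array 1.

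**Figure D3:**
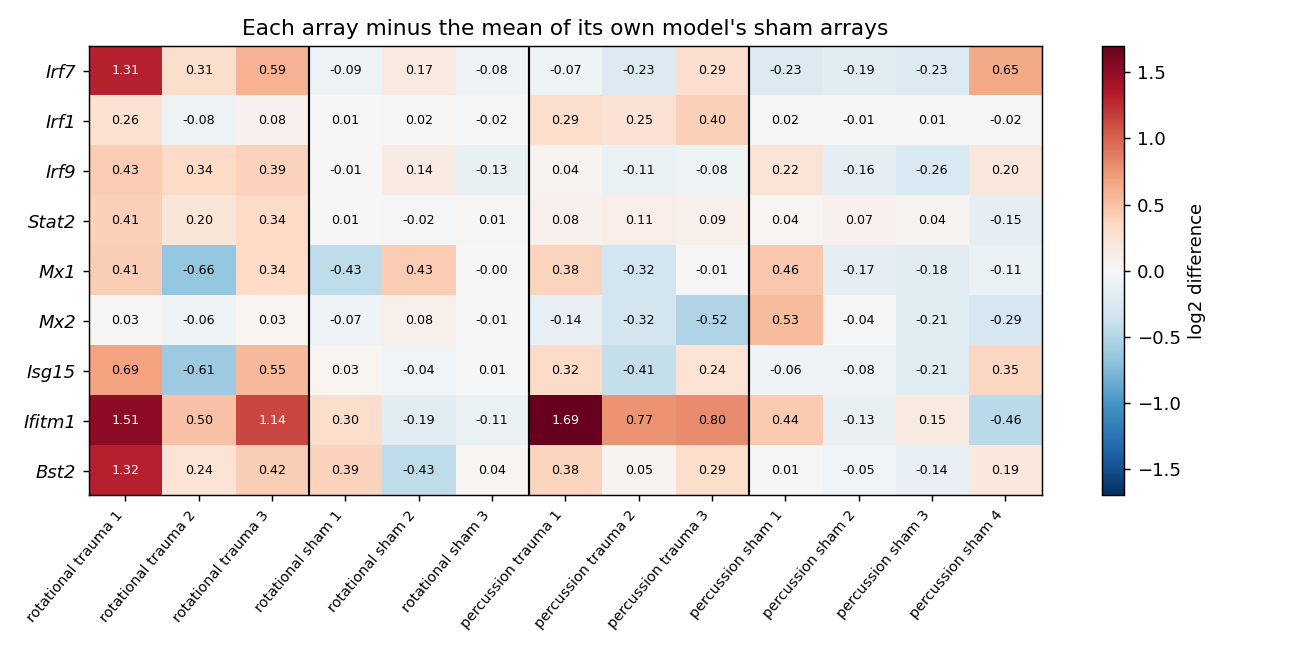
Log2 difference of each array (columns) from the mean of its own model's sham arrays for the 9 genes (rows); red is above and blue below the sham mean, and the printed numbers are the values. Rotational trauma array 1 holds the highest values of Irf7 (1.31) and Bst2 (1.32), and Ifitm1 is above 0 on all 6 trauma arrays.

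Whether the 2 kinds of trauma differed was tested as the percussion effect minus the rotational effect. No member passed, and over all genes 0% did. At an unadjusted p under 0.05, 1 member was lower, against 1.98% of all genes: Irf9 at −0.44 (SE 0.17, adjusted p = 0.526). Irf7 differed by −0.74 (SE 0.38, adjusted p = 0.635), Stat2 by −0.22 (SE 0.10, adjusted p = 0.588) and Irf1 by 0.23 (SE 0.11, adjusted p = 0.609). The Irf7 value was −0.45 without rotational trauma array 1. So the separate orders of Irf7 and Irf9 on one side and Irf1 on the other were not shown to differ between the models. The effects on Ifitm1 differed by 0.04 (SE 0.44), and the size of this error does not show that they were equal. In the mean of both models, 4 members (Ifitm1, Stat2, Irf1 and Bst2) were higher at an unadjusted p under 0.05, against 5.1% of all genes, and none passed. Stat2 averaged 0.20 (SE 0.05, adjusted p = 0.223), Irf1 0.20 (SE 0.06, adjusted p = 0.295) and Bst2 0.45 (SE 0.18, adjusted p = 0.493), or 0.28 without rotational trauma array 1.

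The members that passed a test did so between the sham groups, and they were transcription factors. Stat2 averaged 1.33 ± 0.10 (SD, n = 4) in percussion sham and 0.58 ± 0.02 (SD, n = 3) in rotational sham, a log2 difference of 0.75 (SE 0.07, limma adjusted p = 0.000392). Irf9 averaged −3.04 ± 0.24 (SD, n = 4) in percussion sham and −3.89 ± 0.14 (SD, n = 3) in rotational sham, a difference of 0.85 (SE 0.12, limma adjusted p = 0.00169). Irf1 was lower, at −0.92 ± 0.02 (SD, n = 4) in percussion sham and −0.65 ± 0.02 (SD, n = 3) in rotational sham, a difference of −0.27 (SE 0.08, limma adjusted p = 0.027). These 3 of 9 members passed, 2 higher and 1 lower, where 23.7% of all genes passed, 9.86% as higher and 13.9% as lower. The Irf1 call was lost without any 1 of the 3 rotational sham arrays or of percussion sham arrays 2 and 4, with adjusted p values up to 0.0786, and Stat2 and Irf9 passed without any 1 array. The count of members that passed was 7 without rotational trauma array 2 and 5 without rotational trauma array 1, arrays that enter this comparison only through the spread.

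Irf7 (0.75, adjusted p = 0.0588), Bst2 (0.71, adjusted p = 0.0588), Mx1 (0.81, adjusted p = 0.067), Isg15 (0.69, adjusted p = 0.1) and Mx2 (0.36, adjusted p = 0.139) had positive differences that did not pass, and Ifitm1 had −0.07 (SE 0.30). Irf7 and Bst2 passed in 2 other settings, with probes above background on all arrays (limma adjusted p = 0.0498 each) and with a trended robust spread (limma adjusted p = 0.0474 and 0.0457). In all, 7 of 9 members had a positive difference, against 41.5% of all genes, with a median of 0.71 against −0.06 over all genes. The 64 further genes of the pathway described below were split, with 34 positive and 30 negative differences and a median of 0.03. For 6 members all percussion sham arrays lay above all rotational sham arrays, against 16.2% of all genes, and Irf1 showed the opposite order, as did 25.5% of all genes. The model and the slide are the same split here, so that this difference describes levels on 2 slides and they cannot be told apart. The sham comparison shares the rotational sham arrays with the rotational effect and the percussion sham arrays with the percussion effect. Irf9 and Stat2 had means of −3.50 and 0.89 in rotational trauma, which lay below the percussion sham means.

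Promoter sequences were looked up for all members, because the response elements named above are known to drive genes of this kind. RefSeq promoters of the GRCr8 assembly, from 250 bases before to 50 after the start, were at hand for 6 of the 9 members (Irf7, Irf1, Irf9, Stat2, Mx1 and Bst2). The ISRE core (GAAA, any 2 bases, GAAA), the IRF half-site pair AANNGAAA, which lies within it, and the GAS letters TTCNNNGAA were searched on both strands. Among all 33469 promoters, 3.92%, 26.4% and 8.87% held these letters. The stretches that hold the matches are shown 5′ to 3′ on the gene's strand, with the matched letters in capitals; adjoining matches run together.
Irf7 promoter: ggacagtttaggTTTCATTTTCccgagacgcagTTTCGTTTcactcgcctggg
Irf1 promoter: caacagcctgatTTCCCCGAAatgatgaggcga
Irf9 promoter: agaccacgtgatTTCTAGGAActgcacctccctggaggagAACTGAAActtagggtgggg
Bst2 promoter: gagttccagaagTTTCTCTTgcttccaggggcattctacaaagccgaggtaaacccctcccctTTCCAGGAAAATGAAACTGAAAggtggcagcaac
The Irf7 stretch, at chr1:205800052-205800104 on the minus strand, holds 1 ISRE core read on the opposite strand, 69 bases before the start, and a second half-site pair. The Irf1 stretch, at chr10:38417781-38417813 on the plus strand, holds a GAS match and no half-site pair. The Irf9 stretch, at chr15:33065725-33065784 on the plus strand, holds a GAS match and a half-site pair. The Bst2 stretch, at chr16:18255071-18255167 on the minus strand, holds a half-site pair and then a GAS match that runs into 2 overlapping ISRE cores. The letters were not found in the windows of Stat2 and Mx1. A single window was searched for each gene, so that letters farther away or near other starts were not looked for. A match is a description of these letters and shows no binding.

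The wider pathway was described with 95 further genes in 6 lists, of which 85 were on the array by name and 64 passed the filter on dim probes. In rotational trauma 41 of the 64 had a positive and 23 a negative difference, with a median of 0.11, and in percussion trauma 47 and 17, with a median of 0.15. Over all genes 39.8% and 52.7% were positive. The filter kept a gene well above background in some group, even where it was at background in another. Of the 64, 58 to 61 were well above background on the percussion sham arrays, against 63 to 64 on the percussion trauma arrays. On the rotational arrays 56 to 64 were in trauma, against 63 to 64 in sham. These counts and medians thus rest in part on signals near background. None of the 64 passed in either model. At an unadjusted p under 0.05, 5 of 64 were higher in rotational trauma against 2.85% of all genes, and 7 of 64 in percussion trauma against 7.52% of all genes, which is near that background. The antiviral effectors made up 39 of the 64, with 29 positive and 10 negative differences in each model and medians of 0.13 and 0.16. The 9 nucleic acid sensors had medians of 0.15 and 0.27, the 6 receptor and kinase genes −0.10 and 0.06, the 6 feedback genes −0.07 and 0.11, and the 3 further interferon regulatory factors 0.10 and −0.06. Of the 6 interferon ligands on the array, 1 interferon alpha gene passed the filter, with differences of −0.08 in rotational and 0.01 in percussion trauma. It was not well above background on rotational trauma array 1 and percussion sham array 3. Ifna5, Ifnb1, Ifng, Ifnk and Ifne did not pass the filter, so that their levels give no comparison.

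Of the core of the pathway, Jak1 and Irf3 had small differences from sham in both models, and those of Ifnar1 were larger. The receptor gene Ifnar1 had log2 differences of −0.21 in rotational and 0.17 in percussion trauma (limma adjusted p = 0.782 and 0.553). Its rotational trauma arrays all lay below the sham arrays, as for 10.6% of all genes. Its percussion effect minus the rotational effect was 0.38 (SE 0.15, limma adjusted p = 0.526), which did not pass. The kinase gene Jak1 had −0.10 and 0.04, and Irf3, the factor that starts interferon production, −0.03 and −0.06. Irf3 differed between the shams by 0.90 (SE 0.15, limma adjusted p = 0.0026), higher in percussion sham. Between the shams 9 of the 64 passed as higher in percussion sham, against 9.86% of all genes, and 4 as lower, against 13.9%. The 4 lower were Nmi (−0.44, limma adjusted p = 0.00514), the interferon gamma receptor gene Ifngr2 (−0.43, limma adjusted p = 0.00731), Adar (−0.66, limma adjusted p = 0.0301) and Myd88 (−0.36, limma adjusted p = 0.0308). The 9 higher were Irf3, Usp18 (1.06), Ikbke (0.99), Oas1a (0.98), Ifi44 (0.74), Igtp (0.69), Isg20 (0.66), Trim30 (0.62) and Mavs (0.23), with limma adjusted p values from 0.0026 to 0.039, so that the wider pathway did not share one direction between the slides.

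Lgals3bp, which encodes a secreted glycoprotein, had the smallest p of the 64 in both models. It had −0.15, −0.61 and −0.20 in rotational trauma, against −0.87, −0.60 and −0.86 in rotational sham, and 0.32, −0.19 and −0.12 in percussion trauma, against −0.38, −0.64, −0.61 and −0.44 in percussion sham. The percussion groups did not overlap, the rotational groups overlapped at 1 array each, and the differences were 0.46 and 0.52 (adjusted p = 0.592 and 0.263). Ifitm2, of the same family as Ifitm1, had 1.45, 0.57 and 1.17 in rotational trauma, against 0.56, −0.18 and 0.11 in rotational sham, a difference of 0.90 (adjusted p = 0.597). In percussion trauma it had 1.60, 0.65 and 0.35, against 0.52, 0.18, 0.18 and −0.13 in percussion sham, a difference of 0.68 (adjusted p = 0.434) with groups that overlapped at trauma array 3.

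Ifit3, an RNA-binding effector, had differences of 0.63 in rotational and −0.30 in percussion trauma, and Ifi44 0.50 and 0.12. Ifi35 (0.59, and −0.11 in rotational trauma), its partner Nmi (0.28, and 0.12 in rotational trauma) and the sensor adaptor gene Myd88 (0.31, and 0.14 in rotational trauma) had the next smallest p values among positive differences in percussion trauma. Sp110 had 0.32 in rotational and 0.33 in percussion trauma. The negative differences of smallest p in rotational trauma were those of the feedback inhibitor gene Socs3 (−0.38), Ifnar1, the RNA-editing enzyme gene Adar (−0.36) and the peptide transporter gene Tap1 (−0.35). In percussion trauma they included those of Samhd1 (−0.37), Ifit3 and Herc6 (−0.14). In the mean of both models they were those of Herc6 (−0.14), Jak2 (−0.08), Ifit2 (−0.09) and Socs3 (−0.09). Socs3 was not well above background on any percussion sham array nor on rotational trauma arrays 1 and 2, so that its differences are not measured sizes. Samhd1 was not well above background on rotational trauma array 2 and percussion sham array 4, nor Tap1 on rotational trauma array 2. The difference of Adar in rotational trauma rested largely on rotational sham array 2, which stood far above the other rotational sham arrays. None of these genes passed.

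The wider list also varied between single arrays. More than 0.5 above the own sham mean were 23, 0 and 9 of the 64 genes on rotational trauma arrays 1, 2 and 3, where the shares of all genes were 5.41%, 2.62% and 4.36%. On percussion trauma arrays 1, 2 and 3 they were 16, 3 and 4, where the shares of all genes were 7.53%, 6.61% and 4.63%. The medians of the 64 were 0.31, −0.10 and 0.14 on the rotational trauma arrays and 0.26, 0.05 and 0.17 on the percussion trauma arrays. Array 1 of each trauma group was thus the highest, and rotational trauma array 2 was the one trauma array whose median lay below its sham. Rotational trauma arrays 1 and 2 had 68.2% and 67.0% of spots well above background, the lowest of their slide, against 72.5% on array 3. Of the 39 antiviral effectors, 38, 34 and 39 were well above background on rotational trauma arrays 1, 2 and 3. The part of signal quality in these values was not tested.

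**Figure D4:**
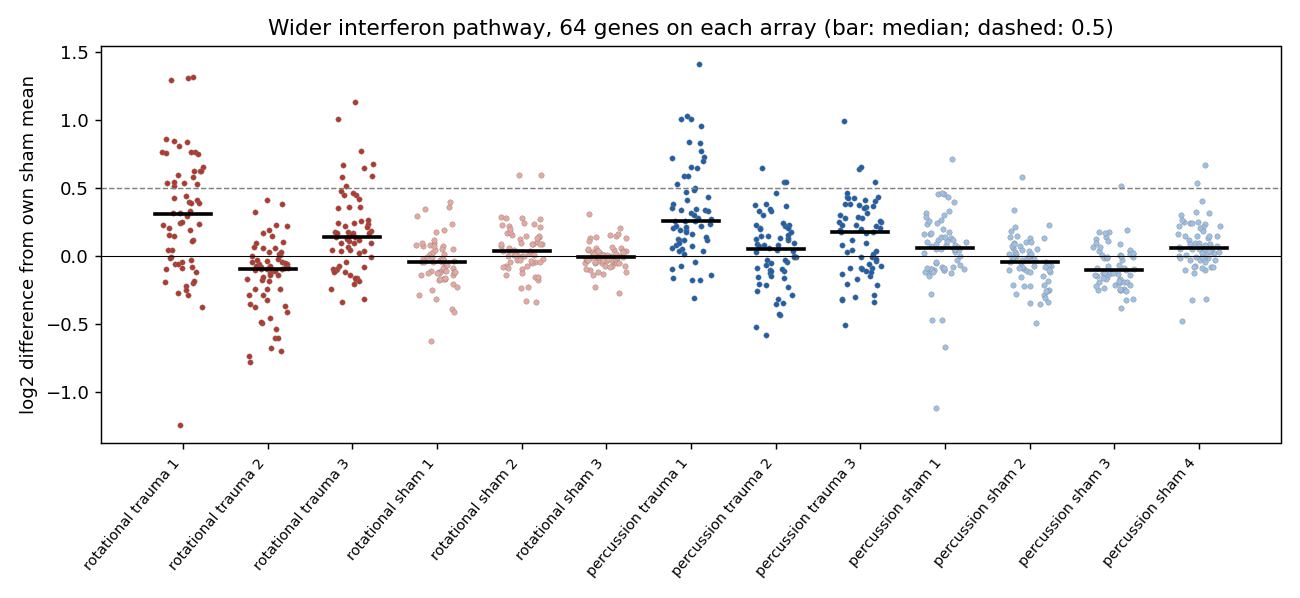
Each point is 1 of 64 genes of the wider interferon pathway on 1 array (x axis), as the log2 difference from the mean of that model's sham arrays (y axis); bars are medians and the dashed line is at 0.5. Rotational trauma array 1 (23 genes) and percussion trauma array 1 (16 genes) have the most genes above the dashed line, and rotational trauma array 2 has none.

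Markers of cell types that frontal cortex samples can hold were read on the same arrays. In bulk tissue, fewer cells of a type and less RNA per cell cannot be told apart. Genes of meningeal fibroblasts (Ogn, Col1a1, Col1a2, Igf2, Dcn, Lum and Aldh1a2) had positive differences in 7 of 7 in both models, with medians of 1.23 in rotational and 1.34 in percussion trauma, and 0 of 7 passed. Their mean level was 0.06, −1.02 and −0.68 in rotational trauma, against −1.33, −2.08 and −1.84 in rotational sham. It was 0.51, −0.28 and −0.80 in percussion trauma, against −1.15, −1.72, −1.37 and −2.22 in percussion sham. The trauma arrays were above the sham arrays in both models, as for Ifitm1. Between 6 and 7 of the 7 were well above background on every array.

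After subtracting each slide's mean, the correlation of Ifitm1 with the mean of these 7 genes over the 13 arrays was 0.98. After subtracting each group's mean it was 0.94, and without the 2 arrays farthest from the median of the meningeal mean it was 0.96 (n = 11, slide-centred). The corresponding slide-centred values were 0.76 for Stat2, 0.75 for Irf1 and 0.68 for Bst2, and 0.32, 0.28, 0.26, 0.23 and −0.07 for Irf9, Isg15, Irf7, Mx1 and Mx2. After subtracting each group's mean instead, they were 0.599 for Stat2, 0.53 for Bst2 and 0.35 for Irf1, while Mx2 had 0.55 and Irf7 −0.15. So the order of the members below Ifitm1 depended on the centring. The slide-centred correlations with the mean of 4 border macrophage markers were of like size, at 0.96 for Ifitm1, 0.81 for Stat2, 0.76 for Bst2 and 0.69 for Irf1. These are descriptions over arrays that share slides and group differences, with no test. The part of the meningeal or border macrophage genes in the differences of Ifitm1, Stat2, Irf1 and Bst2 was not tested. Irf7 had its highest slide-centred values on rotational trauma array 1, among the highest in meningeal genes, and on percussion sham array 4, the lowest in meningeal genes.

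**Figure D5:**
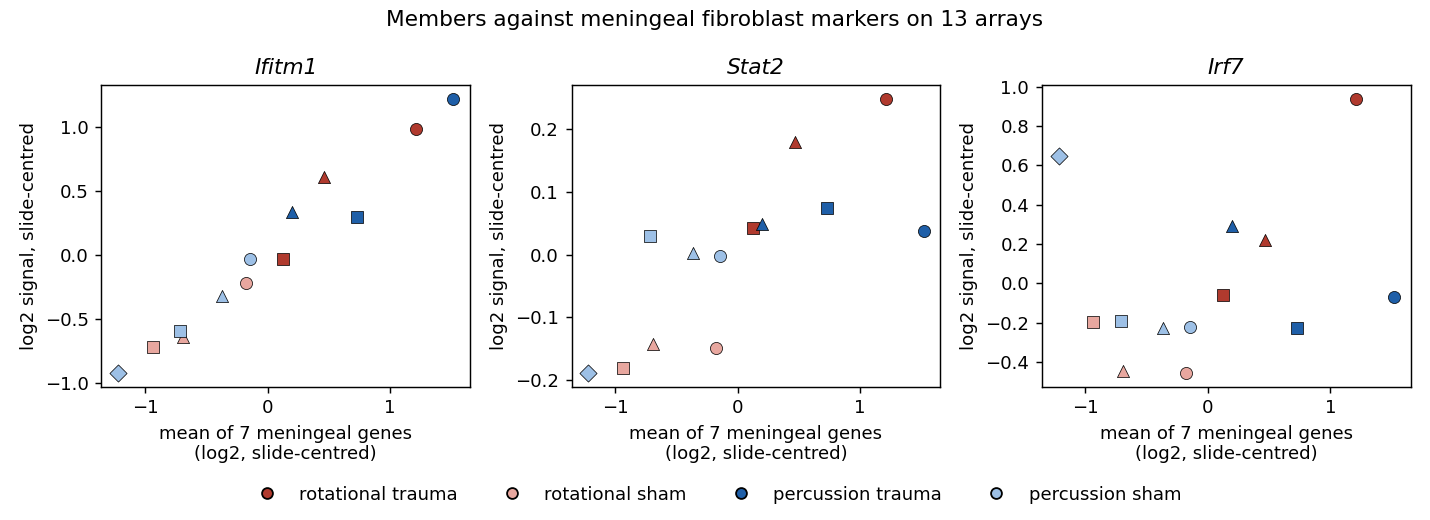
Slide-centred log2 signal of Ifitm1, Stat2 and Irf7 (y axes) against the slide-centred mean of 7 meningeal fibroblast genes (x axis) on 13 arrays; colours give the group and symbols the replicate number (circle 1, square 2, triangle 3, diamond 4). Ifitm1 follows the meningeal mean closely (r = 0.98), Stat2 less so (r = 0.76), and Irf7 does not follow it (r = 0.26).

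Border macrophage markers (4 tested, with Cd163 among them) had positive differences in 4 of 4 in rotational trauma (median 0.88) and in 3 of 4 in percussion trauma (median 0.75). Their mean level ranged from −3.72 to −2.84 in rotational trauma, against −4.37 to −3.62 in rotational sham, and from −4.02 to −3.28 in percussion trauma, against −4.65 to −4.16 in percussion sham. Of the 4, only 3 were well above background on each percussion sham array, against 4 on every array of the other groups. The percussion values of this list, and its correlations with members given above, thus rest in part on signals near background. Endothelial markers (5 tested) had medians of −0.12 in rotational and 0.14 in percussion trauma, with 1 and 4 of 5 positive. On each percussion sham array 4 of the 5 were well above background. Microglia markers (8 tested) had medians of −0.18 and 0.05. Their mean level was between 0.17 and 0.44 in rotational trauma, against 0.30 to 0.42 in rotational sham, and between 0.13 and 0.31 in percussion trauma, against 0.07 to 0.24 in percussion sham. Oligodendrocyte markers (5 tested) had positive differences in 4 of 5 in rotational trauma, with a median of 0.41, and in 1 of 5 in percussion trauma, with a median of −0.12. Of 6 T cell markers Cd3e, Cd8a and Cd8b did not pass the filter on dim probes. The other 3 (Cd3d, Cd3g and Cd4, which rat macrophages also carry) had medians of 0.18 in rotational and 0.79 in percussion trauma, where 3 of 3 were positive, 2 of them at an unadjusted p under 0.05, and none passed. Cd4 had the smallest p of these (0.98, adjusted p = 0.199). The median of the 3 set against the sham mean was 0.495, −0.53 and 0.19 on rotational trauma arrays 1, 2 and 3, and 0.91, 0.34 and 0.73 on percussion trauma arrays 1, 2 and 3. Between 1 and 3 of them were well above background on an array, and 1 of 3 on every percussion sham array.

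Neutrophil and monocyte markers (S100a8, S100a9 and Camp tested) had medians of 0.10 and 0.04 over the groups but differed between arrays. Their median against the sham mean was 0.92, −1.65 and 1.02 on rotational trauma arrays 1, 2 and 3, with 0 of 3 well above background on array 2. Of the 9 members, 5 were above their own sham mean on rotational trauma array 2, where Mx1 (−0.66) and Isg15 (−0.61) were the lowest. The part of the oligodendrocyte, T cell and neutrophil genes in the members' values was not tested. The neuronal markers that define the tissue were well above background on all arrays (6 of 6). Their medians were −0.11 in rotational and 0.01 in percussion trauma, with 2 and 3 of 6 positive. Between the shams 2 of 6 passed as lower in percussion sham, against 13.9% of all genes. Astrocyte markers (5 tested) had medians of −0.07 and 0.11, with 0 and 3 of 5 positive, the highest at 0.98 in percussion trauma. No neuronal or astrocyte marker passed in either model.

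The genes whose pattern over the 13 slide-centred arrays was most like a member were taken for the 4 members of widest range, among 12574 named genes. As the highest of that many values over 13 arrays, these r values are high in part through the choice itself. Slide centring also keeps the differences between trauma and sham. The r values are thus descriptions, with no test. For Ifitm1 they were Emp3 (r = 0.994), Igfbp2 (0.992) and Bmp7 (0.986), which had log2 differences of 0.84, 1.097 and 0.88 in rotational trauma and 0.80, 1.16 and 0.97 in percussion trauma. For Bst2 they included Dnm2 (0.949) and Mid1ip1 (0.899). For Irf7 they were Kcna3 (0.898), Oas1k (0.896) and Krt81 (0.860), and for Isg15 Oas1a (0.908), Hspb1 (0.896) and RT1-CE7 (0.893). Oas1a and Oas1k belong to the oligoadenylate synthetase family of interferon-induced genes. Oas1a had differences of 0.15 and 0.30 in the 2 models, and Oas1k 0.57 and 0.20. Among the members themselves the highest slide-centred correlations were those of Stat2 with Ifitm1 (0.79), Irf1 with Ifitm1 (0.77) and Irf7 with Bst2 (0.72), and the lowest that of Irf1 with Mx2 (−0.40). Isg15 correlated at 0.68 with Irf7 and at 0.67 with Mx1.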

How the data were processed

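RNA from 13 frontal cortex samples was measured on 1-colour Agilent rat arrays. Per the file headers, Feature Extraction 10.5.1.1 made the deposited intensity (processed signal) of each spot, background-subtracted and not scaled between arrays. The authors also deposited a log2 table, used here as an alternative. Each of its 13 columns has the median 8.15, and sorted columns differ little (SD of at most 0.004), as after quantile normalization.

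Of 62976 spots per array, 4259 control spots were left out, outlier spots were set missing, and log2 signals were taken minus the array's 75th percentile. Spots of a probe were averaged. Probes well above background on all arrays of some group were kept (20005 probes), and the probe of highest mean stood for a gene. Updated names come from a GRCr8 gene table (18006 probes by accession, 2654 by symbol, 559 by synonym; 9148 kept the file's name). No probe was saturated. R 4.3.3 with limma 3.58.1 fitted 4 group means (9 residual and 2.22 prior degrees of freedom), with two-sided tests and Benjamini-Hochberg adjustment over 17245 genes; 6 genes had a missing value. The fit was tested on simulated data. Array number limits the precision.

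Same-numbered trauma and sham samples were checked for pairing. The check did not show that the numbers pair them, and with so few samples it cannot exclude pairing. Alternatives changed the scaling, background correction, filter, probe rule, spread estimate, arrays fitted and block. No column of another sample was used. The members and lists were chosen with earlier results of these data known. Of the wider lists, the text names genes past the threshold, otherwise the 4 of smallest p per direction and comparison, and Irf3, Ifnar1 and Jak1 of the core. Ifnar2 and Tyk2 had no name match. Some genes that this rule or the likeness rule takes are not reported here. Likeness lists the 3 genes of highest r.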

Additional observations from a re-analysis of the deposited data

Results flagged for a closer look

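In the group of 4 percussion sham samples, the gap of the highest or lowest sample to its nearest neighbour exceeded Dixon's 95% critical value for 3 of 30 items examined, and chance alone flags about 1 in 20. Irf7 was high on percussion sham array 4 (−1.09, against −1.93 to −1.96 on the other 3). Stat2 was low on the same array (1.18, against 1.37 to 1.40 on the other 3). Mx1 was high on percussion sham array 1 (−0.91, against −1.47 to −1.54).

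For 4 genes of the wider list, all 3 percussion trauma arrays lay on one side of their own sham mean and all 3 rotational trauma arrays on the other. The percussion effect minus the rotational effect was −0.94 for Ifit3, 0.58 for Socs3, 0.91 for Adar and −0.80 for Samhd1. Socs3 was not well above background on any of the 4 percussion sham arrays nor on rotational trauma arrays 1 and 2, so that its value is not a measured size. For Adar, rotational sham array 2 stood far above the other rotational sham arrays. Rotational trauma arrays 1 and 3 were no lower than those others, so that the rotational side of Adar rests on that single sham array. This rule of opposite sides is itself no test. The limma test of the same differences gave adjusted p values of 0.409 for Ifit3, 0.604 for Socs3, 0.388 for Adar and 0.480 for Samhd1, so that none passed.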

How the results depend on the processing

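Under the settings other than leaving out an array, 392 of the members' values kept their direction and their side of the threshold, 14 changed sign, 7 newly passed and 1 no longer passed; the cause was not tested except where named. The sign changes were all of small values. Median scaling gave −0.0148 for Mx2 in rotational trauma, −0.0531 for Mx1 and −0.0179 for Isg15 in percussion trauma, −0.019 for Mx1 in the mean and −0.0154 for Ifitm1 in the difference of the models. Quantile normalization gave −0.0156 and the deposited table −0.0231 for Mx1 in percussion trauma. Normexp correction gave −0.00156 for Mx1 in rotational trauma, 0.0135 for Irf7 in percussion trauma and 0.0931 for Mx1 in the difference. For all genes in rotational trauma (2 called), the count was 0 with quantile normalization, 4 with normexp, 6 with the deposited table, 5 with a trended robust spread and 6 with the arrays of that model alone. Without the filter on dim probes it was 356, and 2979 in percussion trauma, 3780 in the difference and 7623 between the shams. In that setting 2 members passed in percussion trauma, Irf1 (adjusted p = 0.0326, over the other settings 0.131 to 0.631) and Ifitm1 (adjusted p = 0.0442, otherwise 0.109 to 0.5003). Of all calls there in percussion trauma, 249 were higher and 2730 lower. The limma unadjusted p values of Irf1 and Ifitm1 were larger in that setting (0.00304 and 0.00472) than in the main fit (0.00177 and 0.00364). These passes are thus no stronger evidence for the 2 genes. The deposited table called 1 gene in percussion trauma, and the trended robust spread 1 in the difference. Members at an unadjusted p under 0.05 numbered 1 in percussion trauma with the mean of a gene's probes, and in the difference 2 with median scaling, 0 with normexp and 2 with the trended spread; members above 0 in the difference numbered 1 with median scaling. Between the shams, 5 members passed with probes above background on all arrays and 5 with the trended spread, and Irf1 had −0.69 with the mean of its probes (adjusted p = 0.0665). The replicate numbers were not shown to pair the samples (correlation of same-numbered deviations −0.0227 to 0.28, best with the own number for 3 of 6 trauma samples). So few samples cannot exclude pairing. With the replicate block, 0 genes passed in rotational trauma and 28 in the mean of both models, among them 1 member, Ifitm1 (0.99, adjusted p = 0.0493, over the other settings 0.061 to 0.456). Members at an unadjusted p under 0.05 then numbered 4 in percussion trauma, 7 in the mean and 3 in the difference, members above 0 in the difference 1, and the block gave 0.21 for Irf7, 0.0142 for Irf9 and −0.0214 for Mx1 in percussion trauma and −0.12 for Ifitm1 in the difference. The block was not run between the shams, whose blocks lie within slides. Leaving out 1 array at a time gave 0 to 12 genes in rotational trauma, 0 to 5 in percussion trauma, 0 to 21 in the mean, 0 to 8 in the difference and 1869 to 4564 between the shams. Members above 0 numbered 5 to 9, 4 to 7, 7 to 8, 1 to 4 and 7 to 8 in these comparisons, members at an unadjusted p under 0.05 numbered 3 to 7, 2 to 3, 3 to 6, 0 to 3 and 5 to 8, and members that passed numbered 0 in the 4 trauma comparisons and 2 to 7 between the shams. Signs changed for Irf1 (−0.00265 to 0.17), Isg15 (−0.0301 to 0.62), Mx1 (−0.18 to 0.38) and Mx2 (−0.0335 to 0.0436) in rotational trauma. They changed for Irf7 (−0.15 to 0.21), Irf9 (−0.14 to 0.0214), Isg15 (−0.0838 to 0.28) and Mx1 (−0.17 to 0.19) in percussion trauma. They changed for Mx1 in the mean (−0.0837 to 0.20), for Ifitm1 (−0.27 to 0.27), Isg15 (−0.57 to 0.0807) and Mx1 (−0.36 to 0.20) in the difference, and for Ifitm1 between the shams (−0.22 to 0.0824).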
